A study of Schizosaccharomyces pombe with 4 samples.

Results

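The comparison set clr3-CDx2 cells against wild-type (wt) cells of the fission yeast Schizosaccharomyces pombe while the histone methyltransferase Clr4 was tethered to chromatin (the ON state). It rests on 2 of the 4 arrays of the study, chosen by their labels: 1 array of clr3-CDx2 ON cells and 1 of wt ON cells. The other 2 arrays, of clr3-CDx2 OFF and wt OFF cells, are read beside them. The clr3-CDx2 cells had the genotype H3T7 cdc25-22 clr3-CDx2 and the wt cells H3T7 cdc25-22, so wt here means wt for clr3. Cells of all groups carried a tetO-ade6+ reporter and TetR-Clr4 under a thiamine-repressible promoter. ON cells made TetR-Clr4 during 20 generations without thiamine, while OFF cells were kept with thiamine (5 µg/ml) and tetracycline (2.5 µg/ml). All were grown at 26 °C, arrested at G2/M for 4 h at 36 °C and given 1 µM β-estradiol for 2 h, which lets Cre recombinase exchange the HA tag on histone H3 for a T7 tag. What the CDx2 allele changes, and where in the genome tetO-ade6+ lies, is not stated in these sources.

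H3-T7 made after the exchange enters chromatin of arrested cells, so the ratio of H3-T7 ChIP (labelled with Cy5) to input DNA (Cy3) reports where new H3 went in. Total H3 was not analysed here. In fission yeast, heterochromatin marked by H3 lysine 9 methylation covers centromeres, the mating-type region and the chromosome ends, and Clr4 places that mark. Clr3, the catalytic deacetylase within SHREC, removes acetyl groups from H3, and it is known to limit histone exchange in heterochromatin. Levels below are log2 ratios relative to the array median, and differences are clr3-CDx2 minus wt on the log2 scale. With 1 array a group the ON pair allows no test, so spreads are SDs over the probes of a gene or region and cover neither biological nor array error.

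H3-T7 was higher in clr3-CDx2 ON than in wt ON cells over the outer parts of chromosomes I and II. It averaged -0.30 in clr3-CDx2 ON cells and -0.79 in wt ON cells over the 576 probes within 50 kb of an end, a difference of 0.50 (SD 0.42), and 89.1% of these probes were above 0, where 50.1% of all probes were. The difference was 0.42 (SD 0.42, 272 probes) in the first 25 kb, 0.56 (SD 0.41, 304 probes) from 25 to 50 kb and 0.38 (SD 0.43, 957 probes) in the next 3 bins of 25 kb. Over 454 windows of 25 kb in the inner arms, more than 150 kb from an end, the window means lay between -0.25 and 0.26. The means of the 3 zones near the ends lay above that range by ratio, but they pool all ends of I and II. Single bins of 25 kb did not all lie above it. On the left end of I the first bin (0.23) was inside the range, as was 75 to 100 kb on the right end of I (0.24). The bin of these zones farthest from the end was inside it on the left (0.10) and right (0.19) of I and the right of II (0.12). All other bins of these zones were above it. In ChIP signal alone the zone of the first 25 kb gave 0.22, inside the range of the inner windows (-0.21 to 0.26), and the other zones gave 0.37 and 0.28. Of the 0.50 within 50 kb, 0.30 came from the ChIP channel and -0.20 from the input channel, since input there was lower in clr3-CDx2 ON cells. The OFF pair, which shares no array with the ON pair, gave 0.15, 0.51 and 0.50 in the same 3 zones, where its inner windows lay between -0.19 and 0.26. The first 25 kb of the OFF pair were thus within the inner range, with 51.8% of probes above 0 against 50.3% of all probes.

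The ends differed in where the gain lay. On the right end of II it was largest at 25 to 50 kb, with a level of 0.46 in clr3-CDx2 ON cells and -0.38 in wt ON cells (difference 0.84, SD 0.42, 80 probes). On the left end of II it was largest at 50 to 75 kb, with a level of 0.12 in clr3-CDx2 ON cells and -0.66 in wt ON cells (difference 0.78, SD 0.38, 80 probes). On the left end of I the value was 0.59 (SD 0.32) at 25 to 50 kb and 0.51 (SD 0.36) at 75 to 100 kb. On the right end of I it was 0.29 (SD 0.29) in the first 25 kb and 0.40 (SD 0.37) at 50 to 75 kb, and its mean over the first 50 kb, 0.33, was the lowest of the 4 ends. Between 150 and 200 kb all 4 ends were between -0.05 and 0.06. The outermost 25 kb of the right end of I differed by state, at 0.29 in the ON pair and -0.15 in the OFF pair, and this contrast was not tested. The gene tlh1, a RecQ-type helicase gene next to the telomere of I, was lower, with -0.02 in clr3-CDx2 ON cells and 0.22 in wt ON cells. Its difference was -0.24 (SD 0.15, 18 probes). It lies in the first 10 kb of the left end of I, which averaged -0.05 (33 probes) and so showed no gain.

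**Figure D1:**
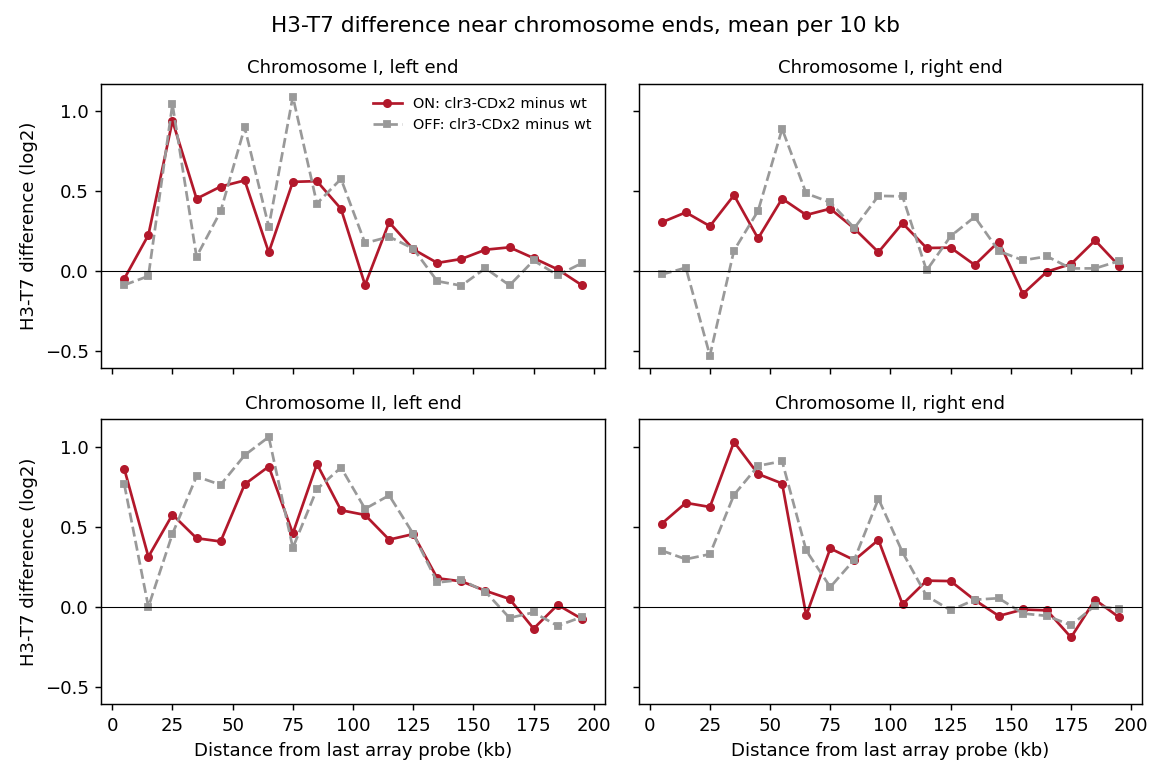
Difference in H3-T7 (clr3-CDx2 minus wt, log2) in bins of 10 kb against distance from the last array probe, for the 4 ends of chromosomes I and II. Red circles are the ON pair and grey squares the OFF pair. The ON values reach 1.03 at 30 to 40 kb of the right end of II and lie between -0.19 and 0.19 from 150 kb on.

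Among the 4606 protein-coding genes that had 3 or more probes, 42 (0.912%) were at least 1.5-fold higher in clr3-CDx2 ON than in wt ON cells and 24 (0.521%) were at least 1.5-fold lower. ChIP signal alone, an alternative added after seeing the data, gave 23 higher and 10 lower, and normexp background correction gave 218 and 182. Among the 127 genes in the outer zone, the first 5 bins of 25 kb at each end of I and II, 27 were higher and 1 was lower. Elsewhere, 15 of 4479 genes were higher and 23 were lower. Of the 27 higher genes near the ends, 25 were above 0 in the OFF pair, where 42.5% of all genes were. In that pair 13 of the 27 passed 1.5-fold, where 0.564% of all genes did. Their median was 0.76 in the ON pair and 0.58 in the OFF pair. The 15 higher genes elsewhere had a median of 0.64 in the ON pair and 0.09 in the OFF pair, and none passed 1.5-fold in OFF. The 23 lower genes elsewhere had a median of -0.67 in the ON pair and -0.06 in the OFF pair, and again none passed 1.5-fold in OFF. Since 0.564% of all genes were 1.5-fold higher in OFF and 0.239% lower, none among 15 or 23 genes is near those shares. Across genes the ON and OFF differences correlated with r = 0.52 over the 127 genes near the ends and 0.10 over the other 4479. These are across genes, which share arrays and neighbouring probes and are not independent replicates.

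**Figure D2:**
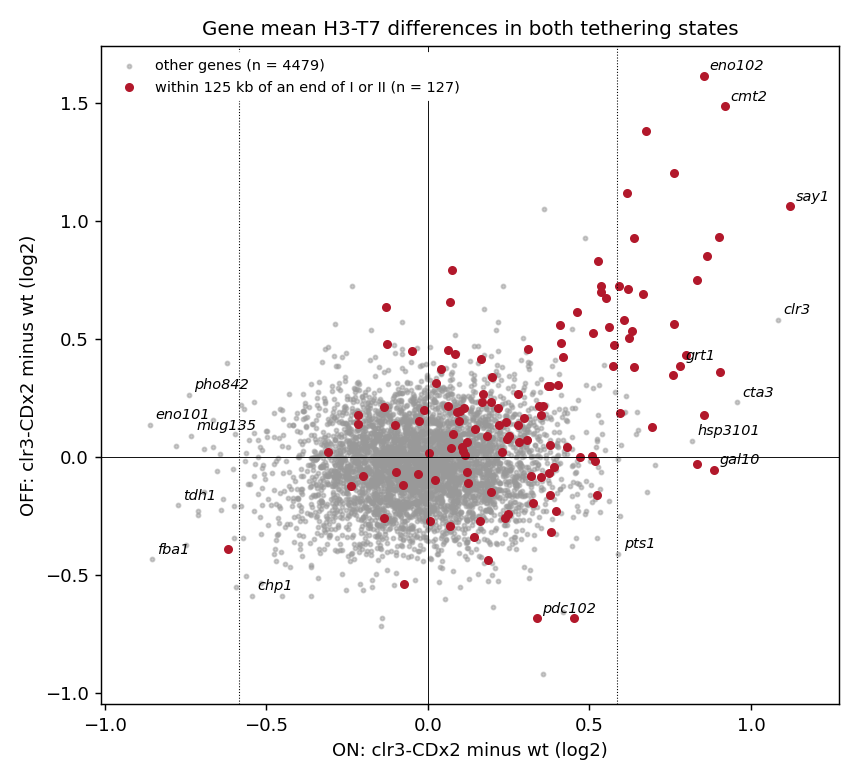
Mean H3-T7 difference of each gene (log2), in the ON pair on the x axis and the OFF pair on the y axis. Red points are the 127 genes of the outer zone of I and II, grey points the other 4479, and dotted lines mark 1.5-fold in ON. Of the 42 genes right of the upper line, 27 are red, and the genes left of the lower line spread around 0 in OFF.

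The highest gene was say1 (II, 4462179 to 4463754), 46.8 kb from the right end. Its level was 0.43 in clr3-CDx2 ON cells and -0.69 in wt ON cells, a difference of 1.12 (SD 0.13 over 6 probes, 2.17-fold), with all 6 probes higher, and OFF cells gave 1.06. It lay in a domain with fub2 and nrg1 (II, 4455301 to 4464060) that averaged 0.58 in clr3-CDx2 ON cells and -0.51 in wt ON cells (difference 1.09, SD 0.35, 30 probes). Domains were stretches of 5 or more probes in which a running median of 5 neighbours passed 1.5-fold. The gene cmt2 had 0.03 in clr3-CDx2 ON cells and -0.89 in wt ON cells (difference 0.92, SD 0.10, 4 probes), and eno102, a second enolase gene, had 0.16 in clr3-CDx2 ON cells and -0.70 in wt ON cells (difference 0.85, SD 0.10, 5 probes). They lie 65.1 and 58.8 kb from the left end of II, in the longest higher domain (II, 57901 to 70260, 41 probes), whose level was 0.11 in clr3-CDx2 ON cells and -0.77 in wt ON cells. Their OFF differences were larger, 1.48 for cmt2 and 1.61 for eno102. A domain over pan5 (II, 4473001 to 4482960) had a difference of 0.99 and one over SPAC212.04C (I, 21301 to 28560) a difference of 1.02. Another, over the neighbours SPBPB10D8.01 and SPBPB10D8.02C (II, 81901 to 89460), had 0.91. In the domain over SPAC212.04C 91.7% of probes had names with an added suffix, against 4.04% of all probes.

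In all, 48 domains were higher in clr3-CDx2 ON cells, holding 488 of the 40740 probes on the chromosomes (1.2%), and 27 were lower, holding 166 probes (0.407%). Of the 48, 34 lay in the outer zone of I and II. The 48 averaged 0.21 in clr3-CDx2 ON cells and -0.67 in wt ON cells, so their H3-T7 stood below the array median in wt and near it in clr3-CDx2. The difference of 0.88 had a ChIP part of 0.63 and an input part of -0.25. Read in OFF cells, 43 of the 48 were also higher and 29 passed 1.5-fold. Of all single probes, 50.3% were above 0 in the OFF pair and 3.35% were 1.5-fold higher. The lower domains averaged -0.44 in clr3-CDx2 ON cells and 0.27 in wt ON cells, and their mean difference in OFF cells was -0.01. No lower domain lay in the outer zone, but that zone holds a small share of the probes, so few of 27 could be expected there. None of the 27 passed 1.5-fold in OFF cells. Since 1.16% of single probes were 1.5-fold lower there, none among 27 is near that share.

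Away from the ends, clr3 itself, the gene whose allele differs between the strains, had the largest difference in size of the 4479 genes outside the outer zone. The clr3 gene (II, 255466 to 257918, 255 kb from the left end) had a level of 0.94 in clr3-CDx2 ON cells and -0.14 in wt ON cells, a difference of 1.08 (SD 0.32, all 8 probes higher, 2.12-fold). The ChIP channel gave 0.98 of it and the input channel -0.11, so the array showed no gain of input over the gene. The difference built up along the gene: it averaged 0.11 in the 2 kb before the coding start, 0.84 over the first 4 probes of the coding region, 1.35 over the last 3 and 0.22 in the 2 kb after its end. In OFF cells the gene was at 0.44 in clr3-CDx2 and -0.14 in wt (difference 0.58). There the first 4 probes of the coding region gave 0.59 and the last 3 gave 0.64. The other genes of the SHREC list, which build the same complex, were between -0.20 (clr1) and 0.24 (chp2, SD 0.95 over 4 probes).

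The chromodomain gene chp1 held the largest single differences of the whole array. Chp1 belongs to the RITS complex, which links RNA interference to heterochromatin, and its chromodomain, near the amino terminus, binds methylated H3 lysine 9. A pair of adjacent probes at the start of its coding region stood apart. The first (I, 2214301 to 2214360, coding bases 280 to 339) had a level of 0.55 in clr3-CDx2 ON cells and 3.60 in wt ON cells, a difference of -3.04. The second (I, 2214601 to 2214660, coding bases -20 to 39, counted from 1 at the first base of the start codon) had 0.75 in clr3-CDx2 ON cells and 3.42 in wt ON cells, a difference of -2.66. These were the largest differences in size among 41020 probes, and they were the largest in OFF cells as well, at -3.18 and -3.05. On both wt arrays the 2 probes had the 2 highest H3-T7 ratios of all probes. Both channels took part: in ON cells ChIP was lower in clr3-CDx2 by 1.82 and 1.49 log2 units and input was higher by 1.22 and 1.17. The coding bases given are approximate, since gene placement on this arm had an SD of 69.6 bp over blocks.

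The input of the 2 chp1 probes did not follow their neighbours. Relative to the array median, input log2 signal at the first probe was 1.22 in clr3-CDx2 ON cells and 0.00 in wt ON cells, and 2.85 in clr3-CDx2 OFF cells and 0.81 in wt OFF cells. At the next probe inside the gene (I, 2214001 to 2214060) input was 0.27 in clr3-CDx2 ON cells and 0.26 in wt ON cells. The other 10 probes of chp1 averaged -0.08 in the ON pair (SD 0.32) and -0.08 in the OFF pair (SD 0.14). The gene mean of -0.54 for chp1 in ON cells therefore rests mainly on 2 of 12 probes. On the other side of the pair, the next probes (I, 2214901 to 2214960 and 2215201 to 2215260) were lower by ratio too. Their differences were -0.47 and -0.45 in the ON pair and -0.36 and -0.29 in the OFF pair. ChIP signal at the first probe was 1.77 in clr3-CDx2 ON cells and 3.59 in wt ON cells above the array median, while at the next probe inside the gene it was -0.29 in clr3-CDx2 ON cells and -0.11 in wt ON cells. The cause was not tested.

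**Figure D3:**
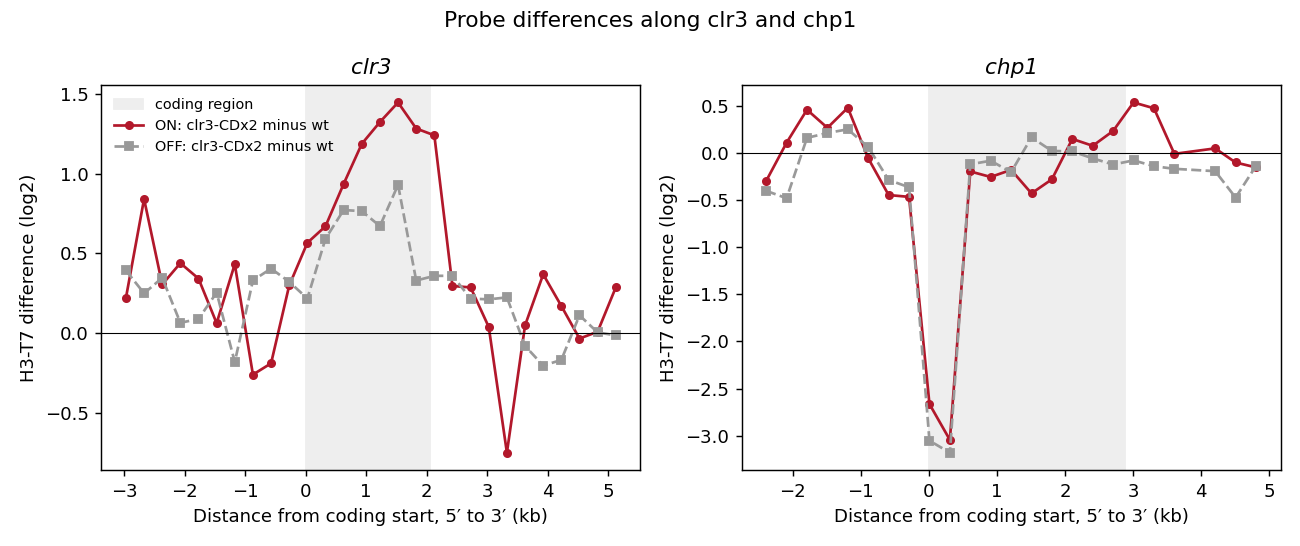
Difference in H3-T7 of single probes (clr3-CDx2 minus wt, log2) along clr3 and chp1 against distance from the coding start in kb; grey shading is the coding region, red circles the ON pair and grey squares the OFF pair. At clr3 the ON difference climbs to 1.45 among the last 3 probes of the coding region, and at chp1 2 probes at the coding start lie near -3 in both pairs.

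Higher genes were also found outside the outer zone of I and II. The gene cta3, which encodes a cation-transporting ATPase (II, 608013 to 612769), lay 607.8 kb from an end and had 1.19 in clr3-CDx2 ON cells and 0.23 in wt ON cells, a difference of 0.96 (SD 0.38) with all 16 probes higher. In OFF cells its level was 0.65 in clr3-CDx2 and 0.42 in wt (difference 0.23). On chromosome III, 47.4 kb from the left end, hsp3101, an Hsp31 family gene, had 0.93 in clr3-CDx2 ON cells and 0.11 in wt ON cells (difference 0.82, SD 0.06, 4 probes) and a difference of 0.07 in OFF cells. The largest positive contrasts between the states, ON minus OFF, were at SPAC227.17C (1.28), SPAC186.08C (1.13), gid2 (1.07), pdc102 (1.02) and pts1 (1.00). Of these, SPAC186.08C and pdc102 lie 29.4 and 24.9 kb from the right end of I. At SPAC227.17C the OFF difference of -0.92 had an SD of 1.46 over 3 probes and an input part of 0.62, so its probes did not give like values. At these 5 genes the ON difference was 0.34 to 0.59 and the OFF difference was -0.92 to -0.41. None of these contrasts was tested.

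The galactose genes, which sit together 18.9 to 25.5 kb from the right end of II, were higher in clr3-CDx2 ON than in wt ON cells. Of the 4 genes, 3 passed 1.5-fold (0.912% of all genes did) and the median was 0.71, against -0.02 over all genes. Of these 3, gal10 and tgd1 share most of their probes. The count and the medians of this list thus take that stretch more than once. The first 25 kb of the right end of II, which include probes of the list itself, averaged 0.63 (SD 0.32, 74 probes). On either side of the list, the ON difference was 0.52 at 0 to 10 kb and 1.03 at 30 to 40 kb of that end. The gain was thus not confined to the list. In the OFF pair the first 25 kb averaged 0.26 (SD 0.44). The gene gal10, for the epimerase of galactose use, had 0.67 in clr3-CDx2 ON cells and -0.21 in wt ON cells, a difference of 0.88 (SD 0.20, all 11 probes higher). In OFF cells it was at 0.46 in clr3-CDx2 and 0.51 in wt (difference -0.06). The annotated span of tgd1 overlaps that of gal10, so their means share probes, and tgd1 gave 0.83 in ON and -0.03 in OFF. The contrast of ON and OFF was not tested. The galactokinase gene gal1 gave 0.60 (SD 0.23) and the transferase gene gal7 0.36 (SD 0.13) in the ON pair, with 0.18 and 0.22 in the OFF pair. In these genes the low array was wt ON: the list had a median level of -0.20 there, against 0.53 in clr3-CDx2 ON, 0.44 in clr3-CDx2 OFF and 0.35 in wt OFF cells. The 1.5-fold rule named 16 of the 42 subtelomeric genes as higher, where it named 0.912% of all genes. Of the 42, 40 were above 0, where 46.4% of all genes were.

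Glycolysis and fermentation genes were lower in clr3-CDx2 ON cells by ratio, and here the input channel carried the larger share. Of 19 genes, 3 were above 0 (46.4% of all genes were), 5 were at least 1.5-fold lower (0.521% of all genes), eno102 was higher, and the median was -0.40. The main enolase gene eno101 had -0.05 in clr3-CDx2 ON cells and 0.81 in wt ON cells, a difference of -0.86 (SD 0.30, 5 probes), with -0.14 in ChIP and 0.72 in input. The aldolase gene fba1 had 0.12 in clr3-CDx2 ON cells and 0.97 in wt ON cells (difference -0.85, SD 0.19), with -0.37 in ChIP and 0.49 in input. The glyceraldehyde-3-phosphate dehydrogenase gene tdh1 had 0.77 in clr3-CDx2 ON cells and 1.55 in wt ON cells (difference -0.77, SD 0.28), with -0.19 in ChIP and 0.58 in input. The alcohol dehydrogenase gene adh1 was lower by 0.67 and the pyruvate decarboxylase gene pdc101 by 0.62. No gene of the list was 1.5-fold lower in ChIP signal alone, and 17 of 19 had more input in clr3-CDx2 ON cells, as did 52.2% of all genes. The median input signal of the list relative to the array median was -0.54 in clr3-CDx2 ON and -0.87 in wt ON cells, and -0.56 in clr3-CDx2 OFF and -0.57 in wt OFF cells, so the wt ON array stood apart from the other 3. The part of the input difference in the lower ratios was not tested.

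**Figure D4:**
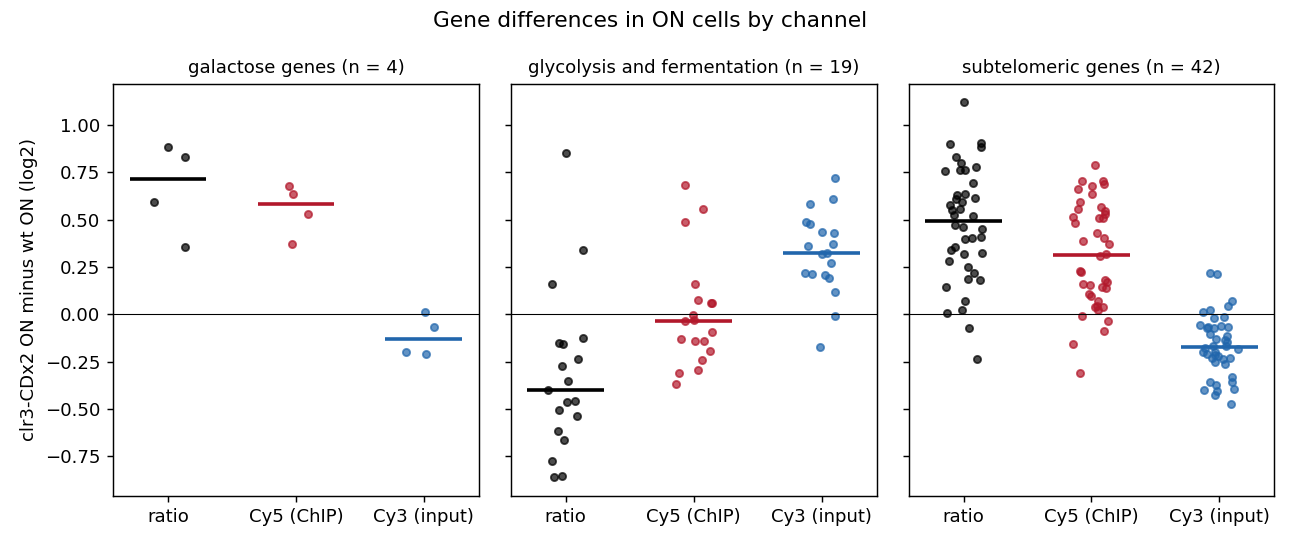
Difference of each gene between clr3-CDx2 ON and wt ON cells (log2) for 3 gene lists, as ratio (black), ChIP channel (Cy5, red) and input channel (Cy3, blue); bars are medians. Median ChIP differences are 0.58 for the galactose genes and 0.31 for the subtelomeric genes, while the 19 glycolysis and fermentation genes have medians of -0.03 in ChIP and 0.33 in input. Of the galactose genes, gal10 and tgd1 share most of their probes.

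Lower genes and domains outside that list lay on all 3 chromosomes. The longest lower domain lay beside the rDNA at the left end of III (3601 to 7860, 15 probes), with -1.23 in clr3-CDx2 ON cells and -0.52 in wt ON cells (difference -0.71, SD 0.17). The OFF pair gave -0.09 there. The fatty acid desaturase gene ole1 lay in the second longest lower domain (III, 1393201 to 1396860), with 0.25 in clr3-CDx2 ON cells and 0.89 in wt ON cells (difference -0.64, SD 0.22, 13 probes). The phosphate transporter gene pho842 had -0.14 in clr3-CDx2 ON cells and 0.60 in wt ON cells, a difference of -0.74 (SD 0.29, all 9 probes lower), and 0.26 in OFF cells. The corepressor gene ssn6 held a lower domain (II, 3864601 to 3866460) at -0.07 in clr3-CDx2 ON cells and 0.80 in wt ON cells, with a ChIP part of -0.42 and an input part of 0.44. Domains at pol1, the catalytic subunit gene of DNA polymerase alpha (I, 3433201 to 3435360, -0.69), and rev1, a translesion polymerase gene (II, 4064101 to 4065960, -0.78), were mainly lower in ChIP. The gene mug135, close to ura4 on III, had -0.56 in clr3-CDx2 ON cells and 0.18 in wt ON cells, a difference of -0.73 (SD 0.40, 5 probes), and 0.09 in OFF cells. The 20 kb either side of ura4 were lower by 0.17 (SD 0.35, 133 probes), and those around ade6 differed by 0.03 (SD 0.32, 139 probes).

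A lower domain of 5 probes (II, 455701 to 456960) lay within meu6 and overlapped clr4, the tethered protein's own gene. The domain was at -0.55 in clr3-CDx2 ON cells and 0.24 in wt ON cells (difference -0.79, SD 0.27), with a difference of -0.00 in OFF cells. The gene meu6 was lower by 0.64 (SD 0.31, 8 probes). Over its 15 probes clr4 was lower by 0.36 (SD 0.40), and how much of this lay outside meu6 was not read separately. Genes of the H3 lysine 9 methylation (CLRC) list had a median of -0.18, with 1 of 6 above 0 (46.4% of all genes were), and none passed 1.5-fold (0.912% and 0.521% of all genes did, higher and lower). The 9 measured histone genes had a median of -0.11 and the 14 genes for H3-H4 chaperones -0.14. RNA interference, HP1 and boundary, shelterin, heat shock, thiamine-repressed, purine and ribosomal protein genes had medians between -0.08 and 0.11, and of these lists only the ribosomal one had a member past 1.5-fold, rpl101 at -0.59 (3 probes).

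Over constitutive heterochromatin and repeats the differences varied in sign. The 352 centromere probes averaged -1.26 in clr3-CDx2 ON cells and -1.27 in wt ON cells (difference 0.01, SD 0.40), with -0.23 in ChIP and -0.24 in input. In the OFF pair centromeres differed by 0.24 (SD 0.37). A short domain inside centromere II (1625401 to 1626660, 5 probes) was higher, at -2.85 in clr3-CDx2 ON cells and -3.58 in wt ON cells. The mating-type region was at 0.05 in clr3-CDx2 ON cells and -0.13 in wt ON cells (difference 0.18, SD 0.25, 95 probes) and the OFF difference was -0.00. The ends of chromosome III beside the rDNA were lower, with -1.14 in clr3-CDx2 ON cells and -0.81 in wt ON cells (difference -0.34, SD 0.46, 94 probes), against 0.13 in the OFF pair. Tf2 retrotransposons were higher by 0.25 (SD 0.11, 73 probes), made of -0.34 in ChIP and -0.59 in input, so the ChIP channel alone had the other sign. The array's pNSU clone probes, which have no position on a chromosome, were lower by ratio (difference -0.31, SD 0.27, 123 probes). Of these, 11.4% were above 0 in the ON pair, and their OFF difference was 0.09. Mitochondrial DNA, which has no histones, had a level of -3.71 in clr3-CDx2 ON cells and -4.72 in wt ON cells (difference 1.00, SD 0.20, 48 probes), with 0.19 in ChIP and -0.81 in input.

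**Figure D5:**
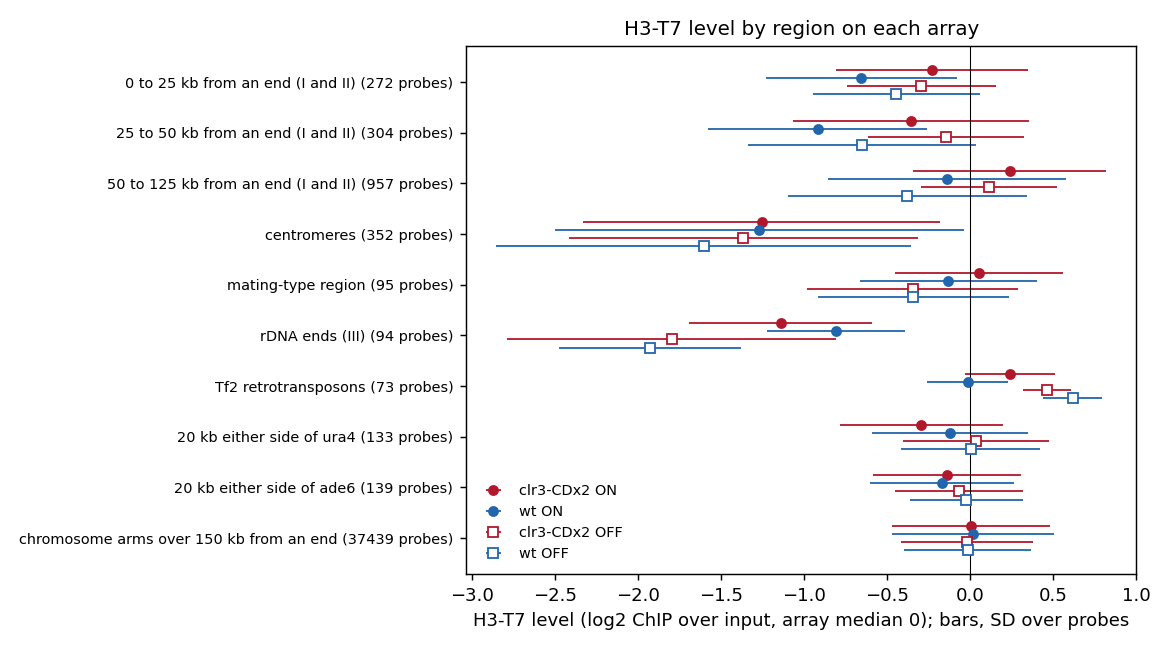
H3-T7 level by region on each array (log2 ChIP over input, array median at 0); points are means over probes and bars SDs over probes, with clr3-CDx2 in red, wt in blue, ON filled and OFF open. The zones near the ends are higher in clr3-CDx2 than in wt in both states, centromeres average -1.26 in clr3-CDx2 ON and -1.27 in wt ON cells, and the rDNA ends are lower in clr3-CDx2 ON cells.

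A test was possible only by taking the 2 tethering states together. limma's genotype effect, fitted on all 4 arrays with tethering state as a term, called 21 genes higher in clr3-CDx2 (0.456%) and no gene lower at an adjusted p under 0.05. At an unadjusted p under 0.05 it gave 152 higher (3.3%) and 211 lower (4.58%). The residual of this fit is the difference between the ON and OFF pairs, so the test asks which genes moved alike in both states and says nothing of ON alone. It leaves 1 residual degree of freedom per gene, against 11.6 from limma's prior pooled over genes. The SEs and p-values thus rest mainly on that prior and cover no spread over cultures. The 21 genes rose by 0.59 to 1.23, and 19 of them lay in the outer zone of I and II. By limma with Benjamini-Hochberg adjustment, say1 rose by 1.09 (SE 0.12, adjusted p = 0.00201), cmt2 by 1.20 (adjusted p = 0.00289), eno102 by 1.23 (adjusted p = 0.00384) and SPBPB2B2.05 by 0.92 (adjusted p = 0.00384). The hexose transporter gene ght7 rose by 0.87 (adjusted p = 0.0125). The 2 called genes away from the ends were clr3 (0.83, adjusted p = 0.0166) and sus1 (0.71, adjusted p = 0.0358, 3 probes), and at sus1 the input part in ON was -0.46 and the ChIP part 0.03. Input was also the larger part in ON at SPBPB10D8.06C (ChIP -0.06, input -0.59), SPBPB10D8.04C (0.05, -0.49) and SPBPB10D8.05C (0.15, -0.47). The same held for SPAC750.06C (0.16, -0.39) and SPBPB2B2.14C (0.18, -0.43), and all of these lie in the outer zone. At the other called genes the ChIP part was larger. The smallest adjusted p among lower genes was 0.0526, for fba1 (-0.64) and for rpl101 (-0.57), a gene for a large ribosomal subunit protein. The chp1 gene was at -0.57 (adjusted p = 0.0569). Without the tethering term the 4 arrays gave 0 genes higher. Fits that left out a single array called fewer genes than the full fit. They also lacked the tethering term and kept 1 array of a genotype, so they do not show the effect of that array alone. Scaled to the same median absolute deviation, the arrays gave 42 higher and 16 lower. In that fit the prior degrees of freedom were infinite, so all genes were given the same pooled variance.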

How the data were processed

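H3-T7 ChIP DNA (Cy5) and input DNA (Cy3), both amplified by random-primed PCR per the labels' protocols, were hybridized to a tiling array whose probes of 60 bases lie 300 bp apart. The authors extracted the arrays with Agilent Feature Extraction 12.0.3.1, per the file headers. Processed signals in the deposited files are an intensity per channel from which background was subtracted, scaled by a linear dye factor. Multiplicative detrending touched only Cy3 on the ON arrays but both channels on the OFF arrays, per the file headers. The deposited log10 ratio, Cy5 over Cy3, served to check the direction. Flags of 0 or 1 in other deposited columns marked outlier spots. The authors' value table equals the log2 ratio of processed signals for 100% of spots (tolerance 1e-06). All 4 arrays lay on 1 slide.

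Of 42968 spots, 1417 were controls. A spot marked as an outlier on at least 1 array was dropped from all (531), which left 41020 probes. Each value is the log2 ratio of processed signals, Cy5 to Cy3, centred on the array median, and ChIP and input parts are the centred channels alone. Median scanner signal in Cy5 was 7688 in clr3-CDx2 ON and 4442 in wt ON cells (backgrounds 64 and 54), and in Cy3 13925 in clr3-CDx2 ON and 7752 in wt ON cells (backgrounds 43 and 37). The number of arrays limits the precision.

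No source used here names the genome build of the array, and printed coordinates are the array's own. Genes of assembly ASM294v3 were placed by matching input signal to GC content per chromosome arm outside the outer 100 kb (correlation 0.233 to 0.325, at most 0.037 at other offsets), with an SD over blocks of 10 to 70 bp. In the outer 100 kb the same offsets gave 0.288 to 0.409, but other offsets reached up to 0.253 there, so placement near the ends is less certain. A gene is the mean of at least 3 probes whose midpoint lies in it. limma 3.58.1 in R 4.3.3 fitted genotype and tethering state to 4606 gene means. This fit and the domain rule were tested on simulated data. The samples of a group are single arrays, and nothing in the labels describes separate cultures.

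Members and lists were chosen with earlier results of these data known. The genes named come from a rule: the 15 most positive and 15 most negative ON differences among genes with 80% or more of their probes on one side of 0, the genes of the 6 largest domains of each sign, the 8 smallest adjusted p of each sign, the 6 largest contrasts between ON and OFF of each sign, members of the lists, and clr3. The text gives a selection. Single probes of chp1, sus1 and the domains at clr4 and centromere II were picked after their values were seen. Alternatives changed the starting signal, the scaling, suffixed probes, the summary over probes, thresholds and the arrays in the fit. Suffixed probes, whose names carry an added suffix after the position, made up 73.2% of the first 25 kb of I and II. At the rDNA ends they made up 100%. Without them the first 25 kb differed by 0.36 in the ON pair. The normexp correction planned on mean signals used the median signals.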

Additional observations from a re-analysis of the deposited data

Results flagged for a closer look

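At 17 named genes, and at 2 of the 6 largest lower domains, the clr3-CDx2 minus wt difference had opposite signs in the ON and OFF pairs. There the pairs were also at least 1.5-fold apart. The named genes include the 6 largest contrasts of each sign, so large contrasts among them follow from that choice. How many of all 4606 genes met this rule was not counted. Each pair is 1 array against 1, so the difference between the pairs was not tested. The values below are the ON difference minus the OFF difference (log2). Positive values were 1.28 for SPAC227.17C, 1.13 for SPAC186.08C, 1.07 for gid2, 1.02 for pdc102, 1.00 for pts1, 0.94 for gal10 and 0.86 for tgd1, whose span overlaps that of gal10. Negative values among the domains were -1.08 at ssn6 and -1.03 at pho842. Among genes they were -1.02 for nas6, -1.003 for pho842, -0.997 for eno101, -0.85 for atd1, -0.82 for adh1, -0.82 for mug135, -0.82 for cwf26, -0.73 for utr4, -0.71 for sqs2 and -0.66 for meu6. At SPAC227.17C the OFF difference had an SD of 1.46 over 3 probes. At eno101 the input part in ON cells was 0.72 and at adh1 it was 0.37, and their part in the contrast was not tested.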

How the results depend on the processing

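None of the 66 called genes changed sign with normexp, background-subtracted signals, equal median absolute deviation, unsuffixed probes, medians or the Cy5 channel alone. A gene with too few unsuffixed probes was counted there at its original value. The settings of 5 probes and 2-fold leave gene values as they are, so no sign could change under them. Normexp background correction, run on median signals, gave 218 higher and 182 lower genes (41 and 19 of the original 42 and 24 among them), 221 higher and 165 lower domains, and, by limma, 13 genes that rose and 2 that fell. Scaling the arrays to the same median absolute deviation gave 25 higher and 14 lower genes, 29 higher and 14 lower domains, and 42 genes that rose and 16 that fell. With at least 5 probes per gene 20 were higher and 12 lower, and at 2-fold 2 and 0. Domains numbered 13 higher and 0 lower at 2-fold and 12 and 2 at a length of 9 probes. The Cy5 channel alone, chosen after seeing the data, gave 23 higher and 10 lower genes, and turned the Tf2 mean to -0.34. limma called 7 genes that rose with background-subtracted signals, 0 with no term for tethering state, and 0 to 3 when single arrays were left out (3 without clr3-CDx2 ON, 0 without wt ON, 1 without clr3-CDx2 OFF, 0 without wt OFF). The causes were not tested. The mean within 50 kb of an end lay between 0.30 and 0.64 over the alternatives, that of the rDNA ends between -0.60 and -0.30, and that of the centromeres between -0.23 and 0.18. No paired analysis was possible because each group is 1 array and no replicate number repeats within a state; the limma fit sets genotype within state through its tethering term. Differences within the ON pair have no replicate, all 4 arrays share 1 slide, and genotype and array cannot be told apart within a state.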
